A study of Mus musculus with 6 samples.

Results

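Interleukin 10 (IL-10) and 7 genes around it were followed in CD4 T cells of the mouse lung: Il10 itself, the transcription factor genes Maf, Prdm1 and Ahr, the receptor genes Il27ra and Il10ra, the cytokine subunit gene Ebi3 and the effector gene Fgl2. These 8 of the 22180 genes measured were selected on the difference between allergen-treated and control arrays in these same data, together with their known links to Il10. Their differences between the groups are therefore given as a description, and nothing is read from their direction. Limma calls given for them below describe the choice and are no evidence. All 8 had a probe set with exactly 1 gene symbol, and no gene was filtered for low signal.

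Wild-type mice had been sensitised and challenged with house dust mite (HDM), an allergen that provokes allergic airway inflammation, or given PBS, the saline vehicle. Digested lung was sorted for cells with CD45 and CD4 on their surface and without CD11b and F4/80, which are found on myeloid cells, and total RNA was hybridised to whole-transcript Affymetrix arrays, 3 for HDM and 3 for PBS. The sources used here do not give strain, age, sex, dose, timing or the number of mice behind each sample, and any spread or p-value measures only the variation between these samples. Values are log2 signals made by the authors with RMA, a method that makes the arrays' distributions nearly equal, so 1 unit is a doubling. Array medians lay between 6.57 and 6.64. With 3 arrays a group, the precision of each value is limited by the number of arrays.

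IL-10 is an anti-inflammatory cytokine that restrains macrophages, dendritic cells and T cells, and several kinds of CD4 T cell make it, among them regulatory T cells, type 1 regulatory (Tr1) cells and T helper 2 (Th2) effector cells. It signals through a receptor of 2 chains, Il10ra and Il10rb, to the kinases Jak1 and Tyk2 and the transcription factor Stat3. Il10 transcription in CD4 T cells is promoted by the factors encoded by Maf, Ahr and Prdm1, and in Tr1 cells the cytokine IL-27, received by Il27ra paired with gp130 (Il6st), induces Maf and Ahr. Ebi3 is a subunit shared by IL-27, where it pairs with the Il27 product, and by IL-35, a product of regulatory T cells, where it pairs with the Il12a product.

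The Il10 signal was 7.12, 7.36 and 7.17 in PBS replicates 1, 2 and 3, and 10.18, 10.53 and 10.75 in HDM replicates 1, 2 and 3. The lowest HDM array lay far above the highest PBS array. The means were 7.22 ± 0.13 (SD, n = 3) and 10.49 ± 0.29 (SD, n = 3), a difference of 3.27 ± 0.15 (SE), or 9.65-fold, which was rank 3 among the 22180 genes ordered by their rise. Between arrays with the same number, the difference was 3.06, 3.17 and 3.58. All 3 pairs thus showed it at a similar size, the arrays numbered 3 most.

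Fgl2 encodes a fibrinogen-like protein that regulatory T cells secrete as an effector and that macrophages carry as a prothrombinase. Its signal was 8.50, 8.99 and 8.46 in the PBS arrays and 11.74, 11.69 and 11.29 in the HDM arrays. The groups were well apart, with PBS replicate 2 above the other PBS arrays and HDM replicate 3 below the other HDM arrays. The mean was 8.65 ± 0.29 (SD, n = 3) in PBS and 11.57 ± 0.25 (SD, n = 3) in HDM. The difference of 2.92 ± 0.17 (SE), or 7.59-fold, was rank 5 of all genes.

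Among the transcription factors, Maf had the largest difference and the tightest HDM arrays. Maf encodes c-Maf, a leucine zipper factor that binds the Il10 promoter. Its signal was 9.47, 9.62 and 9.44 in PBS and 11.11, 11.03 and 11.09 in HDM. The arrays of each group lay close together, and the groups were far apart. The difference was 1.57 ± 0.08 (SE), or 2.96-fold, rank 55. A second, dimmer probe set for Maf read 7.47, 7.59 and 7.79 in PBS and 9.20, 9.32 and 9.51 in HDM, a difference of 1.73 ± 0.13 (SE) in the same direction. The mean of both probe sets differed by 1.65.

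Ahr encodes the aryl hydrocarbon receptor, a ligand-activated factor that acts with c-Maf on Il10 in Tr1 cells. Its signal was 8.87, 9.23 and 9.05 in PBS and 10.26, 10.45 and 10.29 in HDM. The groups did not overlap, and the replicate numbered 2 was highest in each. The difference was 1.28 ± 0.11 (SE), or 2.43-fold, rank 99, and the 3 same-numbered pairs gave 1.39, 1.22 and 1.24.

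Prdm1 encodes Blimp-1, a zinc finger repressor of terminally differentiated lymphocytes that several IL-10-producing effector T cells need. Its signal was 8.48, 8.89 and 8.37 in PBS and 9.03, 9.24 and 9.42 in HDM. The groups did not overlap, but the gap between PBS replicate 2 and HDM replicate 1 was small against the spread within each group. The difference was 0.65 ± 0.16 (SE), or 1.57-fold, rank 503, and it varied between the same-numbered pairs, at 0.55, 0.35 and 1.05.

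Ebi3 differed by 1.01 ± 0.12 (SE), or 2.02-fold, rank 198. Its signal was 7.43, 7.38 and 7.18 in PBS and 8.17, 8.40 and 8.46 in HDM, with every HDM array above every PBS array. The pairs gave 0.74, 1.02 and 1.27. A second, dimmer Ebi3 probe set did not show this: it read 5.69, 5.68 and 5.67 in PBS and 5.43, 5.45 and 5.72 in HDM, a difference of −0.15 ± 0.10 (SE). The mean of both probe sets differed by 0.43, so the size for Ebi3 depends on the probe set.

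Il10ra, the ligand-binding chain of the IL-10 receptor, read 9.65, 9.69 and 9.63 in PBS and 10.67, 10.56 and 10.35 in HDM. The PBS arrays were almost equal, and all HDM arrays lay above them. The difference was 0.87 ± 0.10 (SE), or 1.83-fold, rank 292. Il27ra, which gives the IL-27 receptor its specificity, read 11.64, 11.49 and 11.35 in PBS and 11.92, 11.82 and 11.54 in HDM. It was the only one of the 8 whose groups overlapped, since HDM replicate 3 lay below PBS replicate 1. Its difference of 0.27 ± 0.12 (SE), or 1.20-fold, was rank 2176, although each same-numbered pair was higher in HDM, by 0.27, 0.34 and 0.19.

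**Figure D1:**
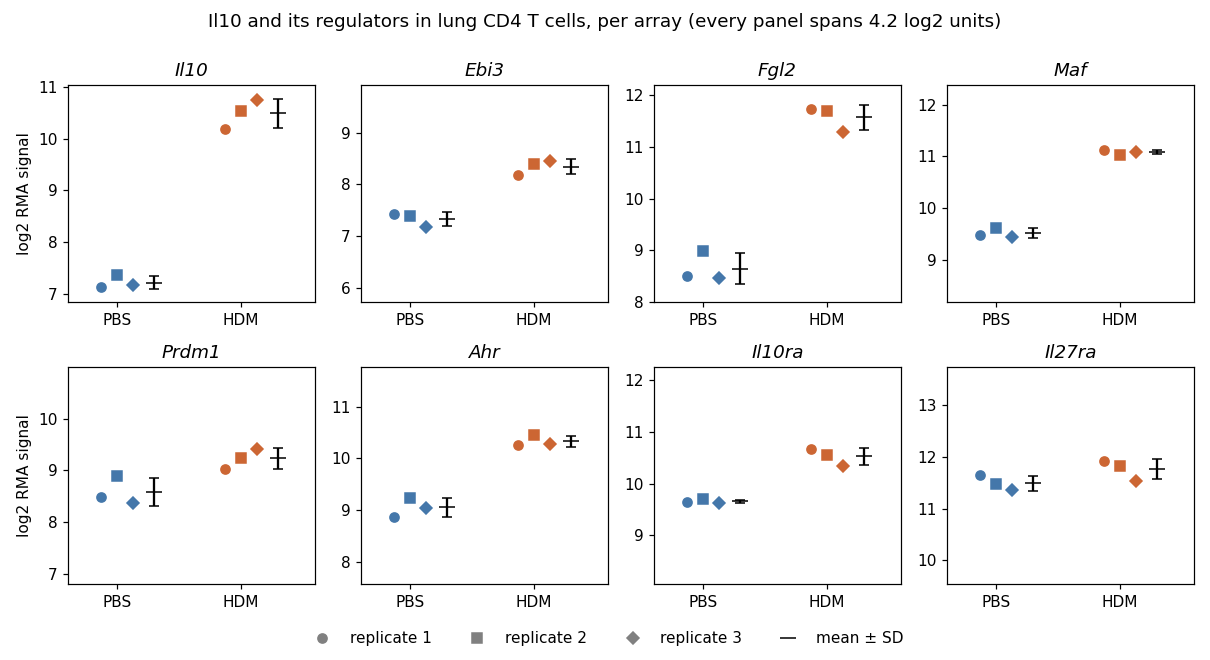
Log2 RMA signal (vertical axis, 4.2 units in every panel) of the 8 genes in the 3 PBS and 3 HDM arrays; circles, squares and diamonds are replicates 1, 2 and 3, and the bar is the group mean ± SD. The groups are widest apart for Il10 (3.27) and Fgl2 (2.92) and overlap for Il27ra.

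In 7 of the 8 genes all HDM values lay above all PBS values, against 10.8% of all genes. With limma (adjusted p below 0.05 over all genes, no block) 6 of the 8 were called higher, against 2.39% of all genes, and Prdm1 and Il27ra were not. Ebi3 was no longer called when the mean of its probe sets was used. With the replicate number as a block all 8 were called, against 5.95% of all genes. The median difference of the 8 was 1.15 and that of all genes −0.01. Because the genes were selected on this contrast, these counts describe the choice and are no evidence. RNA of a whole sorted population cannot tell more transcript per cell from more cells that carry the transcript.

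Within each group the genes did not follow 1 order of arrays. Among the HDM arrays, Il10, Ebi3 and Prdm1 were highest in replicate 3 and lowest in replicate 1, whereas Fgl2, Il10ra and Il27ra were highest in replicate 1 and lowest in replicate 3. The deviation of HDM replicate 3 from the HDM mean was 0.26 for Il10, 0.19 for Prdm1 and 0.11 for Ebi3, and −0.28 for Fgl2, −0.22 for Il27ra and −0.18 for Il10ra. Maf and Ahr stood between these sets, with deviations of 0.01 and −0.05 in that array. Thus Il10 and Fgl2, the genes with the largest differences, had opposite array orders within the HDM group. Some gaps were small, such as 11.74 against 11.69 for Fgl2 in HDM replicates 1 and 2. The share of all genes with each order was not computed. Array orders, here and below, are therefore a description only.

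Among the PBS arrays, replicate 2 was highest for Il10, Maf, Prdm1, Ahr, Fgl2 and Il10ra, with deviations from 0.04 (Il10ra) to 0.34 (Fgl2). Il27ra and Ebi3 were highest in PBS replicate 1, at 0.15 and 0.10. With 3 arrays a group, no correlation within a group was computed, and none was pooled over the groups because they lie apart.

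**Figure D2:**
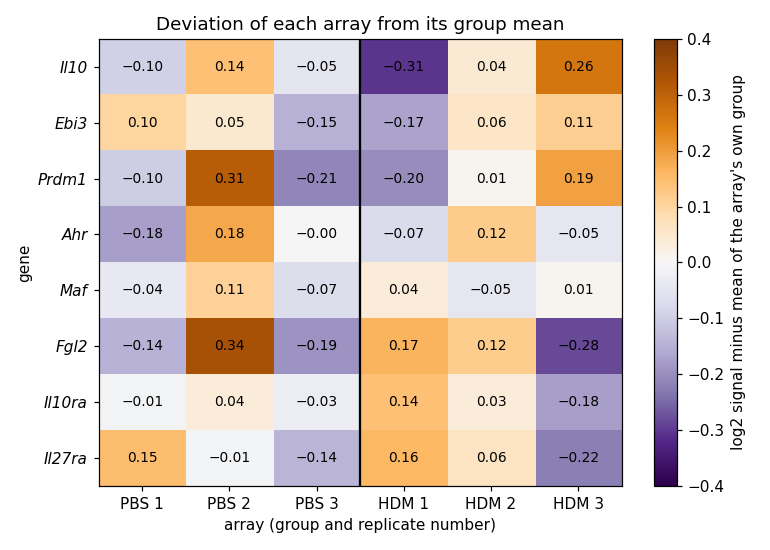
Deviation of each array (horizontal axis) from the mean of its own group, in log2 units (colour and printed value), for the 8 genes. HDM replicate 3 is positive for Il10, Ebi3 and Prdm1 and negative for Fgl2, Il10ra and Il27ra.

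The genes whose profile over the 6 arrays was most like that of Il10 were found by the root mean square of the difference between 2 genes' log2 signals, each gene centred on its own mean. Fgl2 came nearest, at 0.36 log2 units, followed by Adam8, a membrane metalloprotease (0.50), Cxcr6, the receptor for CXCL16 (0.50), Gpr25, a G protein-coupled receptor (0.55), and Il13, a Th2 cytokine (0.55). Vdr, the vitamin D receptor, B4galnt4, a glycosyltransferase, and Ly6g5b, a member of the Ly6 family, followed at 0.58 each. Of the other regulators, Maf was rank 32, Ahr rank 62, Ebi3 rank 139, Il10ra rank 249, Prdm1 rank 366 and Il27ra rank 1916, of 17406 genes compared. The measure weighs the size of a rise as well as its shape, so genes with smaller differences rank lower.

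Fgl2 stayed nearest to Il10 without any single array and with the mean absolute difference. Both genes were selected on the difference between the groups, which the measure weighs. Their nearness thus restates that choice in part and is no evidence of a link. Of the 8 nearest genes, between 5 and 7 were shared when 1 array was left out. Fgl2 itself was nearest to Cxcr6 (0.29), Vdr (0.31) and Itgae (0.31), the CD103 integrin chain. Il13 read 10.98, 11.29 and 9.88 in the HDM arrays, so that like Fgl2 and unlike Il10 it was lowest in HDM replicate 3.

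For the genes of smaller range, Maf was nearest to Ttc39c (0.07), Arnt2 (0.09), a bHLH-PAS paralog of the Ahr partner Arnt, and Crmp1 (0.10). Ahr was nearest to Ccr4 (0.10), which encodes a receptor for the chemokines CCL17 and CCL22, Ptprs (0.10), a receptor phosphatase, and Mapkapk3 (0.10), a stress kinase. Prdm1 was nearest to Sla (0.05), an adaptor that dampens T cell receptor signals, Rab26os (0.07) and Spry1 (0.08), a feedback inhibitor of receptor signalling. Ebi3 was nearest to AW112010 (0.07), Myo3b (0.08) and Nt5e (0.08), the ectonucleotidase CD73. Il10ra was nearest to Ldlrad4 (0.04), a negative regulator of transforming growth factor beta signalling, Camk2n1 (0.06) and Gng2 (0.06). Ahr was rank 14 among the genes most like Maf, and Maf was rank 28 among those most like Ahr.

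**Figure D3:**
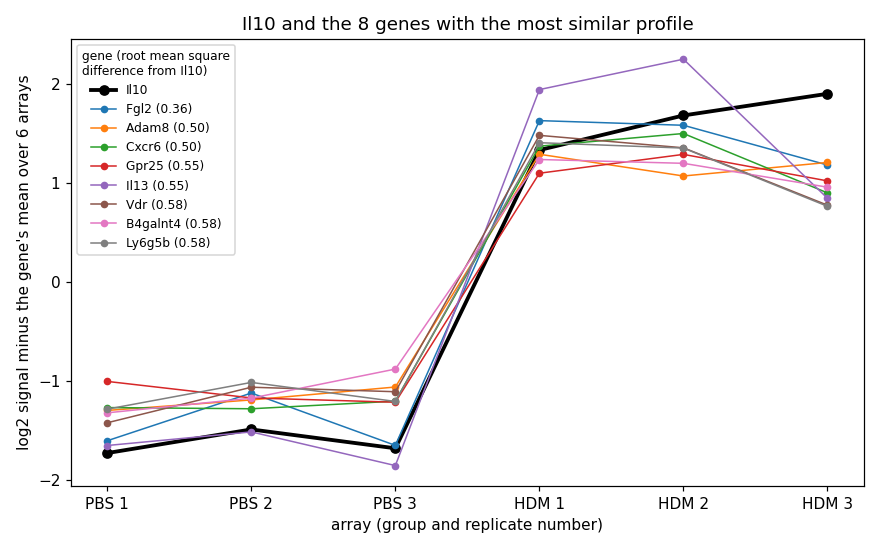
Log2 signal of Il10 (black) and of the 8 genes with the most similar profile, each centred on its mean over the 6 arrays (vertical axis), by array (horizontal axis); the legend gives the root mean square difference from Il10. Il10 is highest in HDM replicate 3, where Fgl2, Cxcr6, Gpr25, Il13, Vdr, B4galnt4 and Ly6g5b are lower than in the other HDM arrays. Adam8 is highest in HDM replicate 1.

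Promoter sequence was at hand for 3 of the 8 genes, Prdm1, Fgl2 and Ebi3, from RefSeq (build GRCm38.p6). All 3 are shown because they were available, and their letters were not compared with the array orders. Each run is the 250 bases before the start of the gene, 5′ to 3′ on the gene's strand, at chr10:44458749-44458998 (minus strand) for Prdm1, chr5:21372423-21372672 (plus strand) for Fgl2 and chr17:55952373-55952622 (plus strand) for Ebi3. Capitals mark matches on either strand to TGCTGA (only a part of a Maf recognition element) or TGANTCA (the AP-1 site). They also mark GCGTG (the core of the Ahr response element), GTGAAAG (the core of the Prdm1 site) and TTCNNNGAA (the Stat site). TGCTGA and TGANTCA can share the letters TGA, and no matches overlapped here.
Prdm1: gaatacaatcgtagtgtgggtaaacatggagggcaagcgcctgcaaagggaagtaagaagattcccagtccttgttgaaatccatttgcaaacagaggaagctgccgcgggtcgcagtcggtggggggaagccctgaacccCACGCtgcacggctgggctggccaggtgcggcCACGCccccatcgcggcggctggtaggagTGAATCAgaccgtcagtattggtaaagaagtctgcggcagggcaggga
Ebi3: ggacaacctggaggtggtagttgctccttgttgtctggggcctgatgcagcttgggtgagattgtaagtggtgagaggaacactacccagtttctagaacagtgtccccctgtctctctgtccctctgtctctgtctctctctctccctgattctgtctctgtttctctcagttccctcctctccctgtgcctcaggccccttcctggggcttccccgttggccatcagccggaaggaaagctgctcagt
Fgl2: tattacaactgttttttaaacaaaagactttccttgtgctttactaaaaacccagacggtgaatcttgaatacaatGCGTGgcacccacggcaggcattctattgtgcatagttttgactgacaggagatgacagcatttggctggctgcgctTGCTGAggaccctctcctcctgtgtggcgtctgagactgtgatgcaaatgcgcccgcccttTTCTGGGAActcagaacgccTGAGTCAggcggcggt

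The Fgl2 window held GCGTG at 174 to 170 bases before the start, TGCTGA at 97 to 92, a Stat match at 36 to 28 and an AP-1 match at 16 to 10. The Prdm1 window held GCGTG on the opposite strand at 109 to 105 and at 77 to 73 bases and an AP-1 match at 48 to 42. The Ebi3 window held no match, which says only that these letters are not in it. Over the 32851 promoter windows of the same length, GCGTG occurred in 28.2%, TGCTGA in 16.1%, TTCNNNGAA in 7.02%, TGANTCA in 6.75% and GTGAAAG in 3.57%. A match is a description of the letters only.

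The remaining genes of the pathway were taken from lists written from general knowledge, with earlier results of these data known. They were tested with limma over all genes, which called 2.39% of genes higher and 1.56% lower, or 5.95% and 6.01% with the replicate number as a block. Of 7 measured genes of IL-10 receptor signalling, 1 fell and 6 did not pass (median difference −0.01). Jak1, the kinase bound to Il10ra, fell from 12.65, 12.61 and 12.57 to 12.30, 12.35 and 12.29 (−0.29 ± 0.06 SE, adjusted p = 0.0299). The groups did not overlap, but the call was lost when any array numbered 1 or 2 was left out (highest adjusted p 0.14), without an intensity trend and with all probe sets adjusted together (up to 0.0898).

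Il10rb, the accessory chain that IL-10 shares with other cytokines, read 9.27, 9.30 and 9.41 in PBS and 9.63, 9.82 and 9.73 in HDM (0.40 ± 0.09 SE, adjusted p = 0.0568, 0.0164 with the block). Stat3, the factor downstream of the receptor, differed by −0.01 (95% interval −0.35 to 0.32, adjusted p = 0.976). With the block 2 genes of the list rose, Il10rb and Tyk2, the kinase bound to Il10rb, which was named after its values were seen (0.38 ± 0.16 SE without the block, adjusted p = 0.279, 0.015 with it).

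Among 8 genes of IL-27, IL-35 and related gp130 and common-chain cytokines, 1 rose, 1 fell and 6 did not pass (median −0.25). Il6st, the gp130 chain that Il27ra needs for signalling, fell from 11.66, 11.82 and 11.82 in PBS to 10.73, 10.95 and 11.26 in HDM (−0.78 ± 0.13 SE, adjusted p = 0.0193). Every HDM array lay below every PBS array. Il21, a cytokine that helps B cells and is itself a target of c-Maf, rose from 6.50, 6.40 and 5.96 to 7.51, 8.28 and 7.22 (1.38 ± 0.27 SE, adjusted p = 0.033). Il6st lost the call when any array numbered 1 or 2 was left out (highest adjusted p 0.105), and Il21 on removal of each single array but HDM replicate 3 (up to 0.122) and with all probe sets adjusted together (0.0578).

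The partners of Ebi3 did not pass. Il27, the p28 subunit, differed by −0.05 (95% interval −0.32 to 0.21, adjusted p = 0.876), and Il12a, the p35 subunit, by 0.15 (−0.22 to 0.51, adjusted p = 0.709). With the block, 4 genes of this list fell: Il6st and, named after their values were seen, Il6ra (−0.44 ± 0.17 SE, adjusted p = 0.211, 0.0266 with the block), Il21r (−0.64 ± 0.28 SE, adjusted p = 0.285, 0.0139) and Il12rb2 (−1.50 ± 0.76 SE, adjusted p = 0.364, 0.000396), the receptor chains for IL-6, IL-21 and IL-12. Il12rb2 read 8.55, 8.83 and 10.89 in PBS and 7.21, 7.10 and 9.44 in HDM. Both arrays numbered 3 lay well above the others of their group, and the groups overlapped.

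Of 17 measured genes for other regulators of Il10 transcription, 5 rose, 1 fell and 11 did not pass (median 0.14). Gata3, the Th2 master factor, rose by 1.02 ± 0.13 (SE, adjusted p = 0.00722), Egr3, an early growth response factor that can promote Il10, by 1.28 ± 0.22 (adjusted p = 0.0198) and Irf4, a factor of effector T cells that binds with Batf, by 1.01 ± 0.18 (adjusted p = 0.0227). Bach2, a repressor of effector genes, fell by 0.97 (SE 0.11, adjusted p = 0.00474). Bhlhe40, a repressor of Il10 in Th1 cells (0.63 ± 0.10 SE, adjusted p = 0.0155), and Ikzf3, which encodes Aiolos (0.54 ± 0.09 SE, adjusted p = 0.0163), also rose and were named after their values were seen.

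Gata3 read 10.70, 10.66 and 10.26 in the HDM arrays, so it shared the low HDM replicate 3 of Fgl2, while Irf4 read 9.79, 10.13 and 10.30 and shared the array order of Il10. With the block 7 genes of this list rose, Batf and Egr2 in addition, and 1 fell. Irf4 no longer passed if PBS replicate 1, PBS replicate 3 or HDM replicate 2 was removed (highest adjusted p 0.105). Bhlhe40 and Ikzf3 lost it without PBS replicate 1, PBS replicate 2 or HDM replicate 1 (up to 0.0851 and 0.0818). Egr3 lost it when any array numbered 1 or 2 was left out (up to 0.0845).

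Of 11 measured partners and targets of the aryl hydrocarbon receptor limma called 0 with or without the block, and 1 had an unadjusted p below 0.05 (median −0.12). Arnt, the nuclear partner, differed by −0.17 (95% interval −0.39 to 0.05, adjusted p = 0.409). The classical target Cyp1a1 read 6.62, 6.68 and 6.69 in PBS and 6.64, 6.64 and 6.68 in HDM, and the repressor Ahrr, also a target, read 5.44, 5.54 and 5.54 against 5.48, 5.51 and 5.58. These arrays were nearly equal for both genes, which lie outside the naming rule. Both signals lay near or below the array medians of 6.57 to 6.64. Without a detection call, a flat signal there cannot be told from absent expression. Tiparp, another target outside that rule, differed by −0.12 ± 0.13 (SE, adjusted p = 0.727), and its groups overlapped. The genes with the largest differences were Hsp90aa1, a chaperone that holds the receptor in the cytoplasm (−0.41 ± 0.13 SE, adjusted p = 0.149), and Cyp1a2 (−0.18 ± 0.11 SE, adjusted p = 0.457).

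Of 14 measured relatives of Maf and Prdm1, 1 fell and 13 did not pass (median −0.08). Maff, a small Maf protein without an activation domain, fell by 0.66 (SE 0.15, adjusted p = 0.0499), a call that was lost when any array numbered 1 or 2 was left out (up to 0.212) and with centring on array medians or other handling of probe sets (up to 0.0804). The genes beside Il10 on its chromosome, in the order Il24, Il20, Il19, Il10, Mapkapk2 and Dyrk3 in GRCm38.p6, gave no call without the block. Over the 9 genes of the IL-10 family and neighbourhood limma called 0, 2 had an unadjusted p below 0.05, and the median was 0.09. Mapkapk2, the kinase gene on the other side, read 9.50, 9.81 and 10.02 in PBS and 10.13, 10.26 and 10.43 in HDM (0.50 ± 0.14 SE, adjusted p = 0.113, 0.0064 with the block). Dyrk3, the kinase gene beyond Mapkapk2, read 6.36, 6.30 and 6.41 in PBS and 6.44, 6.77 and 6.94 in HDM (0.36 ± 0.13 SE, adjusted p = 0.199). Every HDM array lay above every PBS array for both kinase genes.

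Genes listed as coinhibitory were counted next, and their control by c-Maf or Blimp-1 was not tested. Of 10 genes, 4 rose and 6 did not pass (median 0.89), and 7 rose with the block. Pdcd1, the receptor PD-1, rose by 2.08 ± 0.26 (SE, adjusted p = 0.00705), Havcr2, the receptor TIM-3, by 1.83 ± 0.32 (adjusted p = 0.0224), Lag3, a receptor for MHC class II, by 1.59 ± 0.15 (adjusted p = 0.00274) and Nt5e by 0.99 ± 0.09 (adjusted p = 0.00245). Havcr2 read 8.24, 8.66 and 9.48 and Pdcd1 10.67, 10.98 and 11.53 in the HDM arrays, lowest in replicate 1 and highest in replicate 3 like Il10. Lag3 read 9.02, 9.22 and 8.61 and was lowest in replicate 3 like Fgl2. Havcr2 no longer passed if PBS replicate 1, PBS replicate 2 or HDM replicate 2 was removed (highest adjusted p 0.112).

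Of 5 measured Tr1 markers, 1 rose, the costimulatory receptor Icos (0.60 ± 0.08 SE, adjusted p = 0.00916), and 4 rose with the block (median 0.61). The 3 added by the block were Itga2, the CD49b integrin chain (0.61 ± 0.14 SE, adjusted p = 0.0545, 0.0163 with the block), Cd226 and Gzmb, all named after their values were seen. Icos had an adjusted p of 0.0525 in the absence of HDM replicate 2. Of 6 relatives and receptors of Fgl2, limma called 0 with or without the block, and 1 had an unadjusted p below 0.05 (median 0.03). The Fc receptor genes Fcgr2b and Fcgr3, which encode receptors for the secreted Fgl2 protein, differed by 0.26 ± 0.32 and 0.37 ± 0.15 (SE, adjusted p = 0.752 and 0.246).

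**Figure D4:**
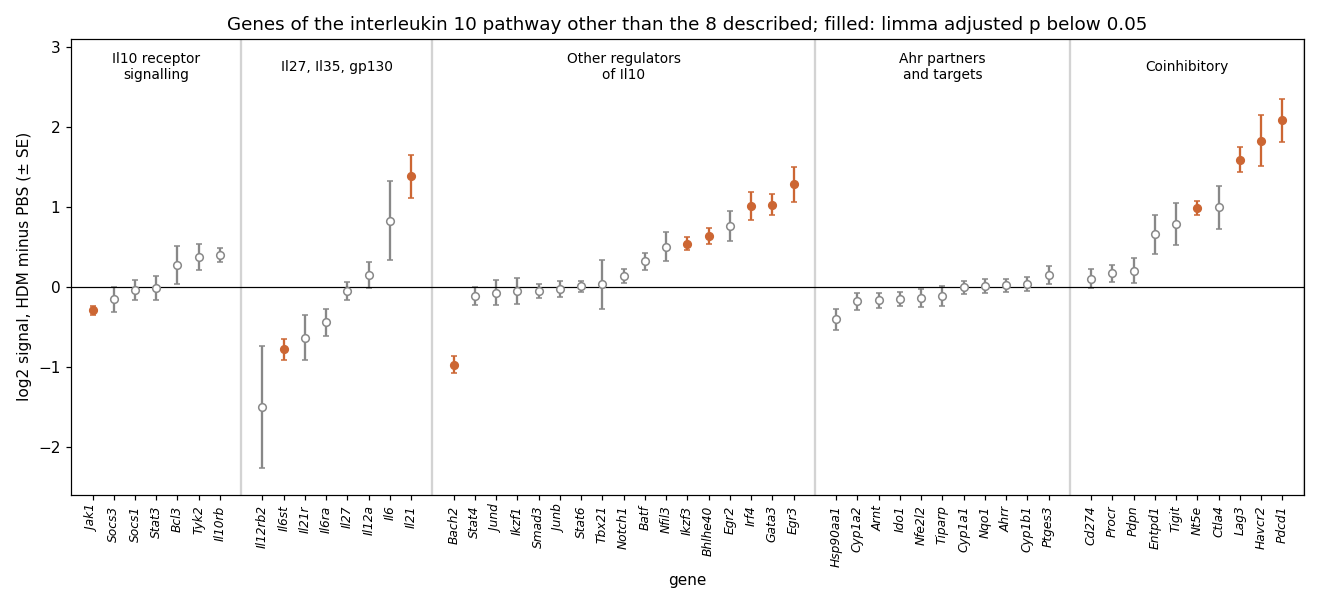
Log2 signal in HDM minus PBS (vertical axis, ± SE) for genes of 5 lists around the IL-10 pathway (horizontal axis); filled points passed limma at an adjusted p below 0.05. Gata3, Irf4, Egr3 and 4 coinhibitory genes lie above 0 and filled, none of the Ahr partners and targets is filled, the lowest being Hsp90aa1 (−0.41), and Il6st and Bach2 lie below 0 and filled.

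The labelled cell type was checked against its markers. Of 6 measured T cell identity genes limma called 0, 2 had an unadjusted p below 0.05, and 2 rose with the block (median 0.17). Cd4 lay between 12.47 and 12.73 in all arrays and differed by 0.15 ± 0.07 (SE, adjusted p = 0.294), and Cd3e lay between 12.72 and 13.09 and differed by 0.10 ± 0.09 (adjusted p = 0.662). The largest difference in the list was in Cd3d, which encodes a CD3 chain (0.22 ± 0.13 SE, adjusted p = 0.462). The 2 genes that rose with the block were Cd3g, another CD3 chain (0.19 ± 0.06 SE, adjusted p = 0.151, 0.0308 with the block), and the surface receptor gene Cd5, named after its values were seen (0.19 ± 0.06 SE, adjusted p = 0.15, 0.0458 with the block). In both, every HDM array lay above every PBS array. The gate held no marker that parts regulatory T cells from other CD4 T cells. Of 5 regulatory T cell markers 3 rose, Foxp3 by 0.83 ± 0.11 (SE, adjusted p = 0.00851), Il2ra by 1.16 ± 0.10 (adjusted p = 0.00245) and Ikzf2 by 0.76 ± 0.14 (adjusted p = 0.0284), and 4 rose with the block. Their mean signal was 10.26 to 10.36 in PBS arrays and 10.86 to 11.13 in HDM arrays. Foxp3 read 11.60, 11.68 and 11.85 in the HDM arrays, lowest in replicate 1 and highest in replicate 3 like Il10, Ebi3 and Prdm1. Ikzf2 lost the call on removal of each single array but HDM replicate 3 (highest adjusted p 0.101) and with all probe sets adjusted together (0.0503). The part of regulatory T cells in the values of Il10, Ebi3, Prdm1 and Fgl2 was not tested.

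Macrophages also express Il10, Maf, Ahr, Fgl2 and Il10ra. Of 13 measured macrophage and monocyte markers, 2 rose and 11 did not pass (median 0.32), and 3 rose with the block. Their mean signal was 7.68, 7.74 and 7.95 in PBS replicates 1, 2 and 3, and 8.30, 7.93 and 8.34 in HDM replicates 1, 2 and 3. Chil3, a secreted chitinase-like protein, rose by 2.11 ± 0.38 (SE, adjusted p = 0.0248) and Itgax, which encodes CD11c, by 1.06 ± 0.22 (adjusted p = 0.038). Chil3 read 11.61, 11.63 and 10.52 in the HDM arrays and was lowest in replicate 3, as Fgl2 was. Itgax and Mrc1 were also lowest there. In contrast, Adgre1, Itgam, Csf1r, Cd68, Lyz2, Cd14 and Fcgr1 were highest in HDM replicate 3, as was the list mean. Mrc1, Cd68, Lyz2, Cd14 and Fcgr1 were named after their values were seen. Chil3 no longer passed when any array numbered 1 or 2 was left out (highest adjusted p 0.11), and Itgax without HDM replicate 2 or any PBS array (up to 0.132) and with all probe sets adjusted together (0.0649).

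The genes of the myeloid proteins in the gate did not pass with or without the block: Adgre1, which encodes F4/80, differed by 0.39 ± 0.24 (SE, adjusted p = 0.469) and the CD11b gene Itgam by −0.02 ± 0.23 (adjusted p = 0.984). Csf1r, the receptor for macrophage colony-stimulating factor, was not in the gate and differed by 0.52 ± 0.25 (adjusted p = 0.34, 0.0488 with the block). Adgre1 read 6.91, 6.96 and 7.44 in PBS and 7.50, 7.02 and 7.95 in HDM. The groups overlapped. Without a detection call, no marker can be said to be at 0.

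Of 6 measured B and plasma cell markers limma called 0 and 1 had an unadjusted p below 0.05, while 1 rose with the block (median 0.30). Their mean signal in replicates 1, 2 and 3 was 6.72, 6.87 and 7.19 in PBS and 6.77, 7.32 and 7.95 in HDM. The array order was that of Il10 in HDM but not in PBS, where Il10 was highest in replicate 2. The plasma cell gene Jchain read 6.93, 7.37 and 8.41 in the HDM arrays (1.41 ± 0.36 SE, adjusted p = 0.0789, 0.00235 with the block), and Ms4a1, which encodes CD20, differed by 0.45 ± 0.33 (adjusted p = 0.548). Of 5 dendritic cell markers limma called 0 with or without the block and 0 had an unadjusted p below 0.05 (median −0.01), with a mean signal of 6.47 to 6.54 in PBS and 6.48 to 6.61 in HDM. The largest differences there were in the lectin gene Clec10a (0.15 ± 0.13 SE, adjusted p = 0.64) and the transcription factor gene Batf3 (0.05 ± 0.09 SE, adjusted p = 0.839).

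Of 5 natural killer and innate lymphoid markers 1 fell, Klrd1 (−1.21 ± 0.23 SE, adjusted p = 0.0317), and the mean signal was 7.01 to 7.29 in PBS and 6.95 to 7.15 in HDM. With the block 1 rose and 2 fell. Arg1 rose, with the largest difference of the list (1.56 ± 0.51 SE, adjusted p = 0.155, 0.0252 with the block). It read 6.96, 6.49 and 6.47 in PBS and 9.03, 8.74 and 6.82 in HDM, and the groups overlapped. Like the macrophage marker Chil3, Arg1 was lowest in HDM replicate 3. Which cells carried the Arg1 signal was not tested. Kit fell beside Klrd1 (−0.47 ± 0.28 SE, adjusted p = 0.451, 0.0455 with the block). Arg1 and Kit were named after their values were seen. Of 6 epithelial and endothelial markers 1 fell, Pecam1 (−0.51 ± 0.08 SE, adjusted p = 0.0169). The mean signal of this list was 8.31 to 9.21 in PBS and 7.98 to 8.90 in HDM. With the block 4 fell: Pecam1 and, named after their values were seen, Cdh5, Kdr and Sftpc. Cdh5 read 8.59 to 10.27 in PBS and 7.72 to 9.78 in HDM, and Sftpc 9.38 to 11.04 and 9.12 to 10.66. Both were lowest in replicate 1 of each group, and their groups overlapped. Cdh5 and Sftpc differed by −0.90 ± 0.57 and −0.40 ± 0.52 (SE, adjusted p = 0.482 and 0.777, 0.00979 and 0.0177 with the block). Klrd1 lost the call on removal of each single array but HDM replicate 3 (highest adjusted p 0.128) and with all probe sets adjusted together (0.0552), and Pecam1 when any array numbered 1 or 2 was left out (up to 0.0961). The part of macrophages, B cells and the other cell types in the values of the 8 genes was not tested.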

How the data were processed

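The authors deposited log2 expression values for 6 arrays, made with RMA (background correction, quantile normalisation and probe summary) per the submitters' processing notes, with no version given. Of 33960 probe sets, 23521 had 1 gene symbol in the platform annotation, 1814 several and 8625 none. Genes with several probe sets (1082 of 22180) were represented by the brightest. HDM and PBS arrays were compared over all genes with limma 3.58.1 (R 4.3.3; lmFit, eBayes with an intensity trend, Benjamini-Hochberg adjustment), without a block in the values given first. Array groups were taken from the sample labels. The gene test without a block was tried on simulated arrays with independent values. The block fit, the likeness search and the promoter search were not tried in this way.

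Same-numbered PBS and HDM arrays deviated together from their group means (r = 0.43, 0.17 and 0.53 for numbers 1, 2 and 3, all over 0.1), so the replicate number was also fitted as a block. This pairing rests on the data, since the labels do not say what a number marks.

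The 8 genes and the 16 gene lists were chosen with earlier results of these data known. Named were the 8 genes, up to 4 passing genes per list with the largest change or, where none passed, the 2 with the largest change, the 8 genes most like Il10, the 3 most like each other gene whose signal spanned at least 1 log2 unit, and a few fixed markers. Predicted genes, small RNAs, receptor and immunoglobulin segments and olfactory receptors were left out of the likeness search. Some listed genes are not reported here. Signals of different probe sets are not comparable as levels. Promoter sequences came from RefSeq (GRCm38.p6) and matched 3 of the 8 genes. Filters on low signal, normalisation, variance settings, array weights, probe set handling, the threshold and leaving out arrays were tried as alternatives.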

Additional observations from a re-analysis of the deposited data

How the results depend on the processing

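The difference of each of the 8 genes kept its direction under every alternative listed here; the dimmer Ebi3 probe set, taken alone, differed by −0.15. Taking the mean of probe sets gave 0.43 for Ebi3, which was then no longer called, and 1.65 for Maf. Limma called 531 genes higher and 345 lower; this became 1319 and 1334 with the replicate number as a block, 914 and 923 with array weights, 352 and 191 with all probe sets adjusted together, 172 and 55 at an adjusted p below 0.01, 819 and 716 below 0.1, and 1250 and 1326 without both arrays numbered 3. The filter at the median gave 557 lower. Leaving out 1 array gave 177 (without PBS replicate 2) to 845 (without HDM replicate 3) higher and 41 to 722 lower; the cause was not tested. Of the 8 genes most like Il10, 5 to 7 were shared when 1 array was left out.

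Counts of called genes per list, either direction, moved as follows. With the block they were 1 (IL-10 family), 3 (receptor signalling), 5 (IL-27 list), 2 (Maf and Prdm relatives), 7 (coinhibitory), 4 (Tr1), 2 (T cell identity), 1 (B cell), 3 (natural killer) and 4 (epithelial and endothelial). Without both arrays numbered 3 they were 1 (IL-10 family, Ahr, Fgl2 relatives and B cell), 3 (receptor signalling and Maf relatives), 6 (IL-27 list), 7 (coinhibitory), 4 (Tr1) and 2 (natural killer). With array weights they were 1 (Ahr and B cell), 2 (receptor signalling, Maf relatives and natural killer) and 3 (Tr1). With all probe sets adjusted together they were 0 (receptor signalling, Maf relatives and natural killer) and 1 (IL-27 list and macrophage). Below 0.01 they were 2 (other regulators) and 0 (receptor signalling, IL-27 list, Maf relatives, macrophage, natural killer, and epithelial and endothelial), and below 0.1 they were 1 (B cell) and 2 (receptor signalling and Tr1). Either filter gave 2 (receptor signalling and Tr1), repeated quantile normalisation 2 (Tr1), a fit without an intensity trend 0 (receptor signalling), and centring or the mean of probe sets 0 (Maf relatives). Leaving out 1 array gave 0 to 1 (receptor signalling, Tr1, Fgl2 relatives, B cell, and epithelial and endothelial), 0 to 2 (Maf relatives, macrophage and natural killer), 0 to 3 (IL-27 list), 3 to 6 (coinhibitory) and 2 to 7 (other regulators). The causes were not tested. Among the 8 genes, the block added Prdm1 and Il27ra to those called. The block also gave 8 (other regulators), 4 (regulatory T cell) and 3 (macrophage) and changed no other call in the lists. The number of arrays limits the precision, and RMA gives no detection call by which dim signals could be set against background.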
